A study of Mus musculus with 6 samples.

Results

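The S100 genes described here are 10 members of a family of small calcium-binding proteins, S100a1, S100a4, S100a6, S100a8, S100a9, S100a10, S100a11, S100a13, S100a16 and S100g, taken by symbol from the 40842 named genes of the lung tables. All 10 had a mean of at least 1 FPKM (this unit adjusts fragments for transcript length and for the mapped total of a library), the filter that left 13908 genes for testing. Expression was measured by polyA RNA sequencing of whole lung from wild-type female C57BL/6N mice, with 3 libraries of untreated animals (control 1 to 3) and 3 libraries of animals given 20 Gy of 9 MeV electrons once and sampled on day 100 (irradiated 1 to 3). The labels do not say which part of the body was exposed, and nothing in them ties each library to a mouse of its own, so the spread behind the p-values may be technical. The series is about γδ T cells and neutrophils in radiation pneumonitis, the lung inflammation that follows irradiation.

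S100 proteins form small dimers whose EF-hand loops bind calcium, after which most of them open a surface that docks onto target proteins. S100A8 and S100A9 pair as calprotectin, an abundant protein of the neutrophil cytosol that binds zinc and manganese and, once released, signals through TLR4 and RAGE. The other members are expressed mainly in epithelial, mesenchymal and muscle cells, where they act inside the cell on annexins, myosin, calcium pumps and secretion, and S100g encodes calbindin D9k, a calcium buffer that in mouse lung is found in alveolar type 2 cells.

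No S100 gene passed an adjusted p of 0.05 with limma, and the members split into 3 patterns. S100g, S100a16 and S100a13 were lower in all 3 irradiated libraries than in any control, by 51.9%, 37.3% and 32.7% of the control mean. S100a8 and S100a9 were high in irradiated 2 and irradiated 3 alone, while irradiated 1 lay inside the control range. The remaining members, S100a1, S100a4, S100a6, S100a10 and S100a11, overlapped between the groups, and their group means differed by 12.5% to 27.5%.

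Over all genes tested, 25 passed the adjusted threshold (0.18% of 13908), so 0 of 10 is close to that background. At an unadjusted p under 0.05, 3 of the 10 members were reached, all lower, beside 17.7% of all genes in either direction, 10.3% lower and 7.41% higher. The irradiated libraries lay wholly below the controls for 3 members, beside 14.6% of all genes, and wholly above them for 0 members, beside 9.91% of all genes. The median log2 difference (irradiated minus control on log2(FPKM + 1), the scale of all log2 differences here) was −0.22 over the 10 members and −0.03 over all genes tested.

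**Figure D1:**
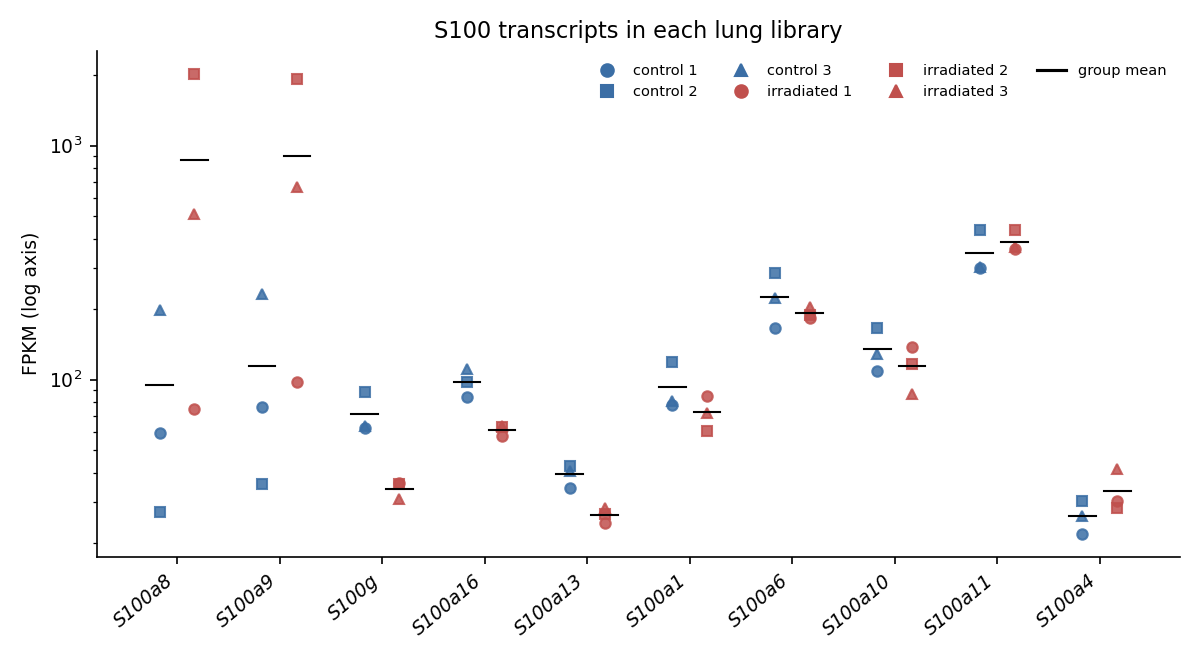
FPKM of the 10 S100 genes on a log axis, with a point per library (blue control, red irradiated, marker shape by library number) and a black line at each group mean. S100a8 and S100a9 span 27.2 to 2029 and 35.8 to 1935 FPKM, while the red points of S100g, S100a16 and S100a13 lie below all blue points.

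The values of the 6 libraries rest on unequal depth. The ratio of deposited FPKM to coverage implied 5.11 to 10.4 Gb of aligned sequence per library, with irradiated 2 the deepest, and 13467 to 14050 genes reached 1 FPKM. Irradiated 2 also stood apart in red cell RNA: 7 red cell markers had a median log2 distance of 2.12 from the control mean there, and −0.13 to 0.21 in the other 5 libraries. Control 2 was highest in heart muscle RNA, with 8 cardiac muscle markers summing to 529 FPKM beside 20.3 to 239 in the others. Lung identity was clear in every library, with Sftpc, the surfactant protein C gene of alveolar type 2 cells, between 8741 and 16828 FPKM.

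S100a8 read 59.3, 27.2 and 199 FPKM in the 3 controls, in the order of their numbers, as do all such values here, while the irradiated libraries read 75.0, 2029 and 509.9 FPKM. S100a9, its calprotectin partner, had control values of 76.5, 35.8 and 232 FPKM and irradiated values of 97.9, 1935 and 665 FPKM. Both genes were lowest in control 2 and highest in irradiated 2, and irradiated 1 was below control 3 for each. The spread was wide within each group: the highest control had 7.30 times the S100a8 of the lowest, and the highest irradiated library had 27.1 times that of the lowest. For the other 8 members the largest such span was 1.71 times within the controls and 1.58 times within the irradiated libraries.

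With that spread the group means of 95.1 ± 91.2 and 871 ± 1026 FPKM for S100a8 (SD, n = 3) gave a log2 difference of 2.62 ± 1.37 (SE) with a 95% interval from −0.81 to 6.05 (limma adjusted p = 0.385). For S100a9 the means were 115 ± 104 and 899 ± 941 FPKM and the log2 difference was 2.53 ± 1.26, with an interval from −0.63 to 5.69 (limma adjusted p = 0.365). Single libraries moved these values: the S100a8 difference was 1.5 without irradiated 2, 1.97 without control 2, 3.38 without control 3 and 3.87 without irradiated 1, and S100a9 went from 1.56 without irradiated 2 to 3.70 without irradiated 1. Neither gene passed in any of these fits.

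Calprotectin transcripts made up 13.7%, 4.74% and 30.6% of the summed FPKM of the 10 S100 genes in the controls, and 15.9%, 80.6% and 56.7% after irradiation. The other 8 genes together summed to 856, 1265 and 979 FPKM without and to 917, 956 and 898 FPKM with irradiation. S100a11 had the highest FPKM of the family in each control and in irradiated 1, and in irradiated 2 and 3 that place was taken by S100a8 and S100a9 respectively.

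The proportion between the calprotectin genes varied little beside their levels, which spanned 74.5-fold for S100a8 and 54.1-fold for S100a9. S100a9 stood at 1.29, 1.31 and 1.17 times the FPKM of S100a8 in the controls and at 1.31, 0.954 and 1.30 times after irradiation. The lowest ratio was in irradiated 2, the only library in which S100a8 exceeded S100a9, and the next lowest was in control 3. The ratio did not separate the groups (exact permutation test over the 6 libraries, two-sided p = 0.80, where the smallest possible value is 0.10).

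The genes face each other on chromosome 3. In the GRCm39 coordinates of the files S100a8 runs from 90576378 to 90577341 on the plus strand and S100a9 from 90599937 to 90603028 on the minus strand, 22.6 kb apart. Because their transcripts vary together, the 250 bases before each start are shown, with S100g as a member of the opposite pattern. The sequences are those of RefSeq on GRCm38.p6, another build than that of the files, 5′ to 3′ on the strand of the gene, at chr3:90668821-90669070 (plus strand, S100a8), chr3:90695722-90695971 (minus strand, S100a9) and chrX:162964600-162964849 (minus strand, S100g). Capitals mark matches on either strand to 5 motifs.
S100a8: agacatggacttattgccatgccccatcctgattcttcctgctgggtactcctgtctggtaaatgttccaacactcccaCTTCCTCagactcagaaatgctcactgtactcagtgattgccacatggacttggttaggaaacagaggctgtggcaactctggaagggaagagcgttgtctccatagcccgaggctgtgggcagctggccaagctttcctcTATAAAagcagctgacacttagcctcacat
S100a9: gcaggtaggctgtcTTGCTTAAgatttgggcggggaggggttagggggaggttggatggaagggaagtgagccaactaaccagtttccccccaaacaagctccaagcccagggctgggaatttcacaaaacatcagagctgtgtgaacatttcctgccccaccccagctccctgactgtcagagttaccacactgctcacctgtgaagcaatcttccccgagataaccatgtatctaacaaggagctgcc
S100g: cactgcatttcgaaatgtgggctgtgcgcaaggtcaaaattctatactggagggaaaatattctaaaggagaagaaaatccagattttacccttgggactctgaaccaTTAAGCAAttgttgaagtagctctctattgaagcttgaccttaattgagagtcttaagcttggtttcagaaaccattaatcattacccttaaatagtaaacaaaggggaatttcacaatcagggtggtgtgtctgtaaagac
The motifs searched were C/EBP as TTGCNNAA, STAT as TTCNNNGAA, AP-1 as TGANTCA, PU.1 as GAGGAAG and the TATA box as TATAAA, where N is any base. No motif is contained in another, and no matches overlapped in these windows. The S100a8 window held a TATA box match starting 30 bases before the start and a PU.1 match on the opposite strand at 171 bases. The S100a9 window held a C/EBP match at 236 bases, and the S100g window a C/EBP match on the opposite strand at 142 bases. Of 32851 RefSeq promoter windows of the same length, 9.56% held a C/EBP match, 10.6% a PU.1 match, 12.4% a TATA box match, 7.02% a STAT match and 6.75% an AP-1 match. Windows were found for 9 of the 10 members. S100a4 also held a TATA box match, at 31 bases, S100a11 held AP-1 matches at 136 and 38 bases, and the second window of S100a16 held one at 192 bases.

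The genes with profiles most like the calprotectin genes were all on the list of neutrophil markers. Likeness was the root mean square difference between log2(FPKM + 1) profiles over the 6 libraries, each centred on its own mean. The nearest to S100a8 were Retnlg (0.30), Cxcr2 (0.45), Il1r2 (0.53), Mmp9 (0.59) and Stfa2l1 (0.69), and the nearest to S100a9 were Cxcr2 (0.31), Retnlg (0.35), Mmp9 (0.45), Il1r2 (0.55) and Csf3r (0.57). Cxcr2 is the chemokine receptor that draws neutrophils from the blood, Csf3r is the receptor for G-CSF, Mmp9 is gelatinase B and Il1r2 is the decoy receptor of interleukin 1.

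Of 18 neutrophil markers, 17 had positive log2 differences with a median of 1.98, beside 6147 of 13908 genes tested. The irradiated libraries lay wholly above the controls for 4 markers, beside 9.91% of all genes. At an unadjusted limma p under 0.05, 3 were reached, all higher, beside 7.41% of all genes, and none passed the adjusted threshold. Retnlg, a resistin-like protein and the most abundant marker of the list, had control values of 10.8, 5.85 and 36.2 FPKM and irradiated values of 25.2, 524 and 105 FPKM. Summed over the list, the control libraries reached 125, 125 and 223 FPKM and the irradiated ones 185, 1283 and 499 FPKM, the same order of irradiated libraries as for S100a8 and S100a9. None of the 18 was at 0 in any library. In bulk tissue more cells of a type and more RNA per cell cannot be told apart.

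Neutrophil genes differed in how they divided irradiated 2 from irradiated 3. Csf3r was nearly level between them at 84.2 and 80.6 FPKM, and so was the stefin Stfa2l1 at 46.6 and 40.8 FPKM. S100a8 was 3.98 times and S100a9 2.91 times as high in irradiated 2 as in irradiated 3. Mmp8, neutrophil collagenase, was 11.3 times as high there (116 beside 10.2 FPKM), and the median over the 18 markers was 2.47 times. Per unit of Csf3r, S100a8 stood at 6.48, 7.13 and 10.8 in the controls and at 6.90, 24.1 and 6.33 in the irradiated libraries. Irradiated 2 alone was far from the rest on that denominator (exact permutation test, two-sided p = 0.90 between the groups). The picture depends on the marker chosen: Retnlg was 4.97 times as high in irradiated 2 as in irradiated 3, more than the 3.98 times of S100a8.

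Markers of the other blood and myeloid cells shared the order of irradiated libraries of S100a8 and S100a9 only in part. Red cell markers summed to 6350 FPKM in irradiated 2 and to 1374 to 1740 FPKM in the other libraries. Irradiated 3, the library second in calprotectin, had 1636 FPKM, within the control range of 1374 to 1740. Of 8 granule genes of neutrophil precursors, 4 were below the filter, among them Elane, neutrophil elastase, at 0.0476 to 0.608 FPKM. The 4 tested had positive differences (median 0.82) with overlapping groups and 0 past the threshold. Of these 4, Ngp had irradiated values of 10.3, 42.3 and 17.8 FPKM, and Camp of 5.52, 11.2 and 8.63 FPKM. Ngp and Camp thus had the irradiated order of S100a8 and S100a9. Ltf and Chil1 had the reverse order, highest in irradiated 1 and lowest in irradiated 2. Of 8 monocyte markers, 6 had positive differences (median 0.32). An unadjusted limma p under 0.05 was reached by 4, all higher, beside 7.41% of all genes, and 0 passed after adjustment. The irradiated libraries lay wholly above the controls for the same 4, beside 9.91% of all genes. They lay wholly below for 1 other, beside 14.6%. Of 9 alveolar macrophage markers 5 had positive differences (median 0.04), 4 had such an unadjusted p, in both directions, beside 17.7% of all genes, and 0 passed. The part of red cell RNA in the values of irradiated 2 was not tested.

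**Figure D2:**
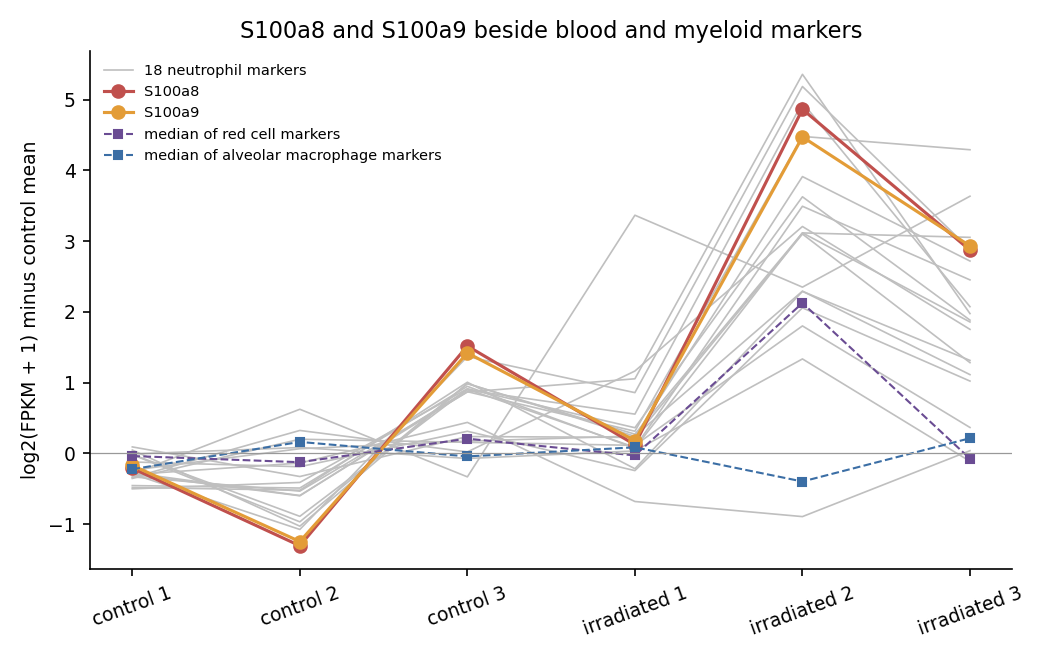
log2(FPKM + 1) minus the control mean for S100a8 (red), S100a9 (orange) and 18 neutrophil markers (grey) in each library, with the medians of the red cell (purple) and alveolar macrophage (blue) lists. Lines only join the values of 1 gene or list. S100a8 and S100a9 stand high in irradiated 2 and 3 among the grey lines, while the red cell median is raised in irradiated 2 alone (2.12).

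Cd177, a neutrophil surface glycoprotein, was the only marker of its list that was highest in irradiated 3, where 16 of the 18 were highest in irradiated 2. It had control values of 1.76, 4.19 and 1.68 FPKM and irradiated values of 33.7, 16.2 and 40.9 FPKM, with irradiated 1 above irradiated 2 (log2 difference 3.12 ± 0.40, limma adjusted p = 0.0565). In irradiated 1, where S100a8 was 0.788 times its control mean, Cd177 was 13.3 times its own.

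S100g, calbindin D9k, had the smallest p of the family, ranked 74 of 13908. Control values were 61.9, 89.0 and 63.1 FPKM, and irradiated values were 36.0, 35.8 and 31.0 FPKM. The groups did not overlap, control 2 stood above the other controls, and the irradiated libraries were close together. The means were 71.3 ± 15.3 and 34.3 ± 2.84 FPKM (SD, n = 3), a log2 difference of −1.02 ± 0.16 with a 95% interval from −1.39 to −0.65 (limma adjusted p = 0.0624).

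Alveolar type 2 markers had the same sign as S100g. All 10 tested markers of that cell had negative differences, from −0.77 to −0.02 with a median of −0.33, beside 7761 of 13908 genes tested. The irradiated libraries lay wholly below the controls for 6 of the markers, beside 14.6% of all genes. At an unadjusted limma p under 0.05, 5 were reached, all lower, beside 10.3% of all genes, and 0 passed after adjustment. Sftpc had control values of 14677, 16828 and 14986 FPKM and irradiated values of 9588, 8815 and 8741 FPKM, and Sftpb and Sftpa1, the next most abundant, had log2 differences of −0.36 and −0.02. Relative to Sftpc, S100g stood at 4.22, 5.29 and 4.21 thousandths in the controls and 3.76, 4.06 and 3.55 thousandths after irradiation. Relative to Napsa, the type 2 cell protease napsin A, it stood at 0.313, 0.435 and 0.306 in the controls and 0.213, 0.236 and 0.174 in the irradiated libraries. Both ratios were lower in all 3 irradiated libraries (exact permutation tests, two-sided p = 0.10 each, the smallest value that 3 against 3 libraries allow). The ratios were chosen after the values were seen. By then S100g (−1.02) was known to have a larger difference than Sftpc (−0.77) and Napsa (−0.29). These p-values therefore cannot serve as a test of S100g against the amount of type 2 cells.

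Some other lists also lay lower. All 6 mesothelial markers, of the outer lining of the lung, had negative differences (median −0.88), with 4 wholly below the controls and at an unadjusted limma p under 0.05, among them Upk3b at −1.59, and 0 past the adjusted threshold. Of 6 endothelial markers 5 had negative differences (median −0.24), with 2 wholly below the controls and at such an unadjusted p, Tek at −1.22 and Tie1 at −0.52, and 0 past the adjusted threshold. Over all genes, 14.6% lay wholly below the controls and 10.3% were lower at such an unadjusted p. Airway epithelial markers had 5 of 7 negative differences (median −0.04). Of these, 2 lay wholly below the controls and 3 were lower at such a p, among them Scgb1a1 at −0.83. Alveolar type 1 markers had 5 of 10 (median 0.00), with 2 wholly below and at such a p, Aqp5 at −0.54 and Cav1 at −0.37. Fibroblast markers had 7 of 10 (median −0.18), with 1 wholly below and 1 wholly above the controls. At such a p, 1 fibroblast marker was lower and 2 were higher. None of these 3 lists had a gene past the adjusted threshold. The part of these cell types in the levels of S100g, S100a16 and S100a13 was not tested.

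The profiles nearest to that of S100g were those of Sbsn (0.05), Gm30294 (0.12), Grrp1 (0.15), Rbp7 (0.16) and Sftpc (0.17). S100g lies on chromosome X from 161744988 to 161747595 on the minus strand, wholly inside Ctps2, a CTP synthase gene on the plus strand. Ctps2 was at 6.72 FPKM on average with a log2 difference of 0.03, beside 52.8 FPKM for S100g. The strand setting of the counting is not given in the sources used here, so reads of the overlapping genes cannot be told apart with certainty.

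S100a16, a widely expressed member, had control values of 84.5, 97.3 and 111 FPKM and irradiated values of 57.5, 62.8 and 63.3 FPKM. The lowest control was above the highest irradiated library, and the log2 difference was −0.66 ± 0.12 (limma adjusted p = 0.0793). S100a13, which takes part in the release of FGF1 and interleukin 1α without a signal peptide, had control values of 34.5, 42.7 and 40.8 FPKM and irradiated values of 24.5, 26.8 and 28.2 FPKM. Its groups did not overlap either, and the log2 difference was −0.55 ± 0.11 (limma adjusted p = 0.0861).

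S100a13 and S100a16 had the smallest root mean square difference of any pair of members, 0.09 over the 6 libraries, beside 0.16 for S100a8 with S100a9. This measure is not scaled to how much a gene varies. The SD over the 6 libraries was 0.32 and 0.38 for S100a13 and S100a16, and 2.27 and 2.13 for S100a8 and S100a9. Outside the family the nearest to S100a13 were Psmg4 (0.05), Vamp5 (0.05), Anp32a (0.05), Rdm1 (0.06) and Mir7046 (0.06), and the nearest to S100a16 were Anp32a (0.07), Chrdl1 (0.07), Psmg4 (0.09), Psmb10 (0.10) and Hddc3 (0.10). Adjusted p-values of these genes lay between 0.0624 and 0.132.

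**Figure D3:**
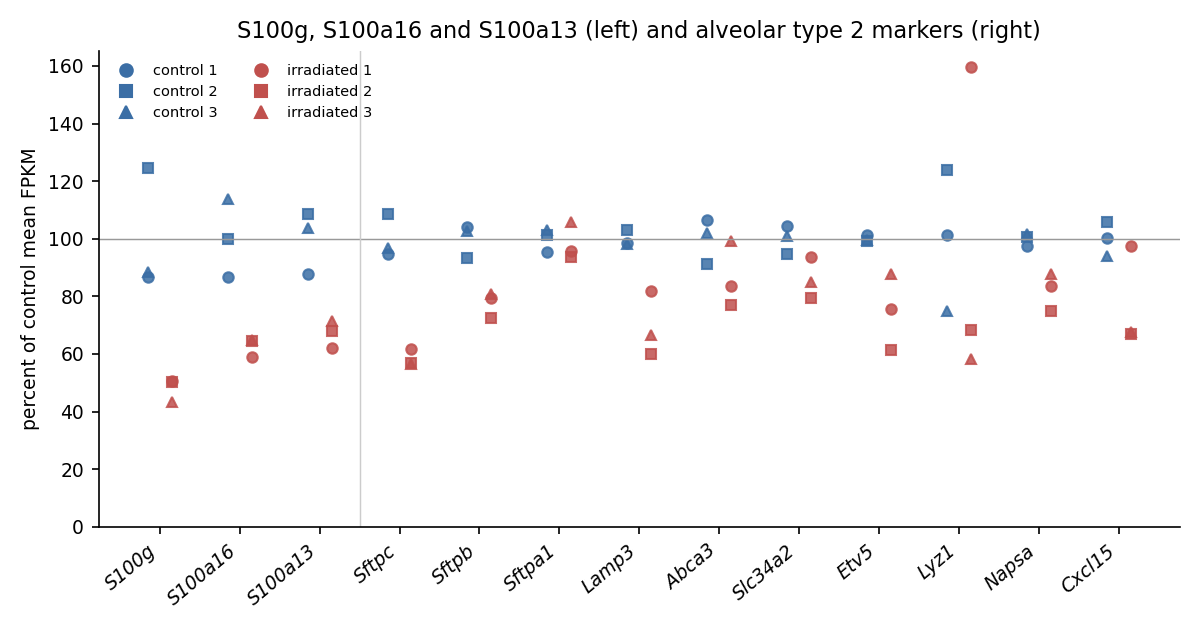
FPKM as a percent of the control mean for S100g, S100a16 and S100a13 (left of the line) and 10 alveolar type 2 markers (right), a point per library (blue control, red irradiated, shape by library number). Red points of S100g, S100a16 and S100a13 lie below all of their blue points, and among the type 2 markers this holds for 6 of 10, beside 14.6% of all genes.

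The size of the S100a13 difference depended on which deposited entry was read. Beside each named gene the tables list unnamed genes assembled from the library over the same place, and for S100a13 these entries were higher than the named one, with control values of 57.6, 68.2 and 59.4 FPKM and irradiated values of 47.8, 49.0 and 51.3 FPKM. The groups still did not overlap, but the log2 difference was −0.31 ± 0.10 (limma adjusted p = 0.182). For the other 9 members the assembled entries moved the log2 difference by no more than 0.03, S100g to −0.99 and S100a8 to 2.60.

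S100a1, a regulator of the calcium pump and the ryanodine receptor of heart muscle, had control values of 77.8, 119.6 and 81.1 FPKM and irradiated values of 85.2, 60.6 and 72.3 FPKM. Control 2 was highest and irradiated 2 lowest, the same libraries that were highest and lowest in cardiac muscle markers (529 and 20.3 FPKM summed). The other libraries did not all keep that order: control 1 with 74.3 FPKM of cardiac markers had more S100a1 than irradiated 3 with 239. The log2 difference of −0.33 ± 0.20 (limma adjusted p = 0.421) became −0.14 without control 2, −0.21 without irradiated 2 and −0.02 without both of these libraries. The part of cardiac tissue in these values was not tested.

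S100a6, calcyclin, had control values of 167, 285 and 224 FPKM and irradiated values of 184, 189 and 204 FPKM, all of which lay inside the control range. Its log2 difference of −0.19 ± 0.19 (limma adjusted p = 0.638) was −0.01 without control 2 and −0.39 without control 1 (limma adjusted p = 0.338). The mesothelial markers, lower after irradiation as given above, summed to 126, 237 and 161 FPKM in the controls and to 116, 60.9 and 69.7 FPKM after irradiation, so control 2 was highest here as well, and their part was not tested. Of the 8 members other than the calprotectin genes, 5 had their highest value in control 2.

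S100a10, which binds annexin A2 without needing calcium, had control values of 109, 166 and 129 FPKM and irradiated values of 138, 117 and 87.2 FPKM. Anxa2, its annexin, was at 285, 399.5 and 303 FPKM and at 349.9, 323 and 268 FPKM. Control 2 was highest, irradiated 1 next and irradiated 3 lowest for both genes. The log2 differences were −0.24 ± 0.21 for S100a10 and −0.06 ± 0.17 for Anxa2, each within the spread of the libraries (limma adjusted p = 0.595 and 0.888), and that of S100a10 went from −0.39 without irradiated 1 and −0.38 without control 1 to −0.08 without control 2 and −0.06 without irradiated 3.

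S100a11, a partner of annexin A1, had control values of 299, 436 and 304 FPKM and irradiated values of 361, 436 and 371 FPKM, so control 2 and irradiated 2 were level at the top. Anxa1 was at 138, 191 and 127 FPKM and at 180.1, 166 and 191 FPKM, and irradiated 2 was the lowest of its irradiated libraries. The log2 difference of S100a11 was 0.19 ± 0.17 with an interval from −0.23 to 0.60 (limma adjusted p = 0.619). It was 0.36 without control 2 (limma adjusted p = 0.438), 0.09 without control 1 and 0.10 without control 3 or irradiated 2.

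S100a4, a binder of non-muscle myosin found in fibroblasts and leukocytes, had control values of 22.0, 30.2 and 26.2 FPKM and irradiated values of 30.2, 28.2 and 41.5 FPKM. Irradiated 3 was the highest and the other irradiated libraries lay near control 2. The log2 difference was 0.33 ± 0.17 (limma adjusted p = 0.372) and went from 0.17 without irradiated 3 and 0.22 without control 1 to 0.54 without both libraries numbered 2 (limma adjusted p = 0.421). Its myosin target Myh9 was at 128, 148 and 90.3 FPKM in the irradiated libraries, lowest in the library where S100a4 was highest, and at 101, 101 and 106 FPKM in the controls.

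Scaling every library to a common FPKM sum, which moved the median of all genes from −0.03 to 0.08, gave differences of −0.21 for S100a1, 0.46 for S100a4, −0.06 for S100a6, −0.11 for S100a10 and 0.32 for S100a11. None passed the adjusted threshold, and S100a4 alone of these 5 had an unadjusted limma p under 0.05 (adjusted p = 0.189).

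The family is largely a gene cluster. Of the 10 genes, 9 lie on chromosome 3, 7 of them within 185 kb from S100a1 (90418341 to 90421637, minus strand) to S100a9, and S100a11 (93427803 to 93433595) and S100a10 (93462424 to 93471952) lie 2.82 Mb further on. S100a1 and S100a13 (90421539 to 90431888) start head to head with 99 bases of overlap on opposite strands, followed by S100a14 and S100a16 (90444561 to 90450458). These 4 genes together span 32.1 kb and had log2 differences of −0.33, −0.55, −0.56 and −0.66, while S100a4 (90511077 to 90513352) and S100a6 (90520201 to 90521721) had 0.33 and −0.19 and the calprotectin genes 2.62 and 2.53.

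Besides the members, 6 tested genes lay within 100 kb of this cluster: S100a14 inside it and 5 genes of other families, all on the side of S100a1. All 6 had a negative sign, beside 7761 of 13908 genes tested, but Ints3 at −0.0001 ± 0.12 was level between the groups. For 3 of the 6, Npr1, Ilf2 and Chtop, the irradiated libraries lay wholly below the controls, beside 14.6% of all genes. Npr1, a natriuretic peptide receptor, had a log2 difference of −0.64 ± 0.10 (limma adjusted p = 0.0701), and Chtop, next to S100a1, had −0.22 ± 0.08.

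**Figure D4:**
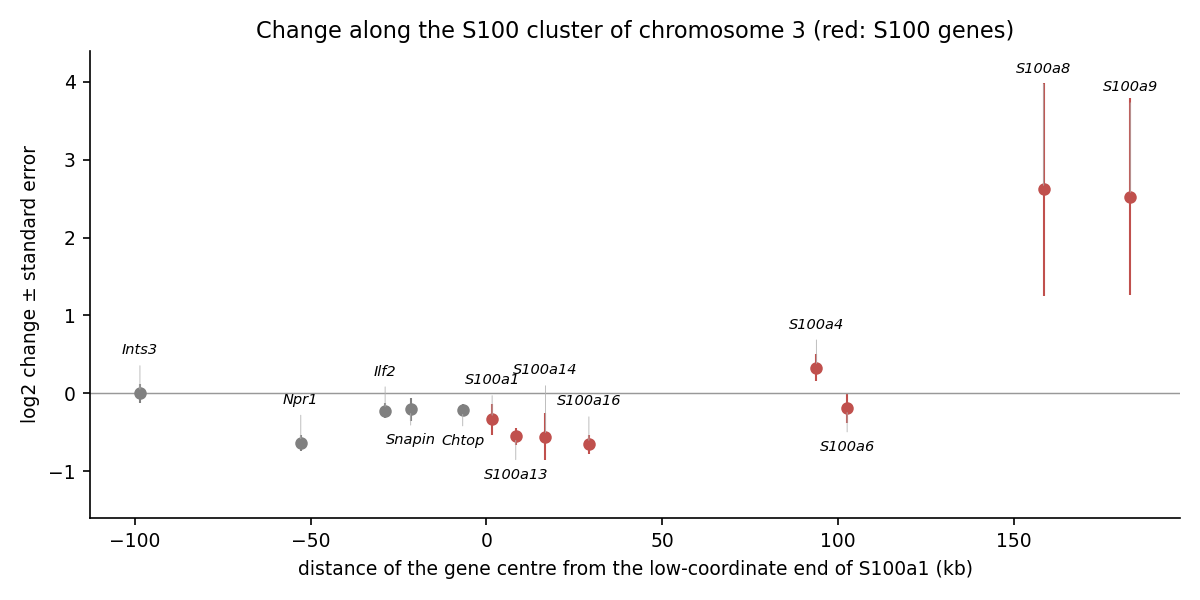
log2 difference (irradiated minus control, bars are ± standard error) of each tested gene along the chromosome 3 cluster, against the distance of its centre from S100a1 in kb (red S100 genes, grey other genes). The S100a1 to S100a16 end lies below 0, and S100a8 and S100a9 at the other end lie at 2.62 and 2.53 with standard errors above 1.

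Other S100 genes were low in lung. Of 7 looked at, 2 passed the filter: S100a14, an epithelial member, with control values of 4.93, 9.46 and 4.95 FPKM and irradiated values of 5.69, 2.57 and 3.86 FPKM, and S100b, the glial and Schwann cell member, at 0.740 to 2.60 and 0.803 to 3.22 FPKM. Neither passed the adjusted threshold (log2 differences −0.56 ± 0.30 and 0.42 ± 0.41). S100a3 and S100z stayed below 0.5 FPKM, S100a7a reached 1.21 FPKM at most, and S100a5 and S100a7l2 were listed at 0 in all 6 libraries.

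Receptors of secreted S100 proteins went both ways, with 3 of 10 at positive and 7 at negative differences (median −0.12). An unadjusted limma p under 0.05 was reached by 2 in each direction, beside 7.41% of all genes higher and 10.3% lower. None passed the adjusted threshold. Cd14, the co-receptor of TLR4, had control values of 13.6, 16.4 and 15.0 FPKM and irradiated values of 23.8, 46.5 and 23.4 FPKM, so the groups did not overlap and irradiated 2, with the most S100a8, was highest (log2 difference 0.94 ± 0.26, limma adjusted p = 0.160). Myd88, the adaptor of TLR4, was at 17.0, 19.7 and 17.2 FPKM and at 20.5, 30.1 and 24.0 FPKM (0.43 ± 0.15, limma adjusted p = 0.207). Tlr4 itself was at 4.05 to 4.43 and 4.57 to 5.55 FPKM (0.18 ± 0.11, limma adjusted p = 0.417). These were the 3 of the 10 receptor genes wholly above the controls, beside 9.91% of all genes. Ly96, another gene of the list, had the opposite sign and overlapped between the groups (−0.14 ± 0.19, limma adjusted p = 0.743).

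On the other side, Cd36, a scavenger receptor of capillary endothelium and macrophages that binds calprotectin with its lipid cargo, had control values of 349, 335 and 383 FPKM and irradiated values of 249.7, 247 and 282 FPKM (−0.45 ± 0.11, limma adjusted p = 0.122). Bsg, the surface protein basigin and a receptor of S100A9, was at 258, 305 and 269.9 FPKM and at 239, 207 and 196 FPKM (−0.38 ± 0.12, limma adjusted p = 0.199). Cd36 and Bsg were the 2 of the 10 receptor genes wholly below the controls, beside 14.6% of all genes. Ager, the receptor RAGE, made chiefly by alveolar type 1 cells, was the most abundant of the list at 1149 ± 106 and 1015 ± 102 FPKM (SD, n = 3), and its groups overlapped (−0.18 ± 0.13, limma adjusted p = 0.527).

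Of 13 intracellular partners 12 were tested, with 5 positive and 7 negative differences (median −0.06). An unadjusted limma p under 0.05 was reached by 1, which was lower, beside 10.3% of all genes, and none passed the adjusted threshold. The irradiated libraries lay wholly below the controls for 3 of them, Anxa6, Dlc1 and Fgf1, beside 14.6% of all genes. Anxa6, an annexin that binds S100 proteins, had control values of 90.9, 96.3 and 89.1 FPKM and irradiated values of 84.1, 65.9 and 72.2 FPKM (−0.32 ± 0.11, limma adjusted p = 0.222). Dlc1, whose protein binds S100A10, was at 37.5, 32.0 and 37.2 FPKM and at 31.6, 31.6 and 28.7 FPKM (−0.21 ± 0.10). Fgf1, whose release uses S100A13, was at 46.0, 45.5 and 47.8 FPKM and at 44.6, 44.2 and 44.2 FPKM, a difference of −0.06 ± 0.08 beside −0.55 for S100a13. Ahnak, the scaffold of the S100A10 and annexin A2 complex, was at 78.5 ± 7.92 and 92.4 ± 9.06 FPKM (SD, n = 3) and overlapped between the groups.

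**Figure D5:**
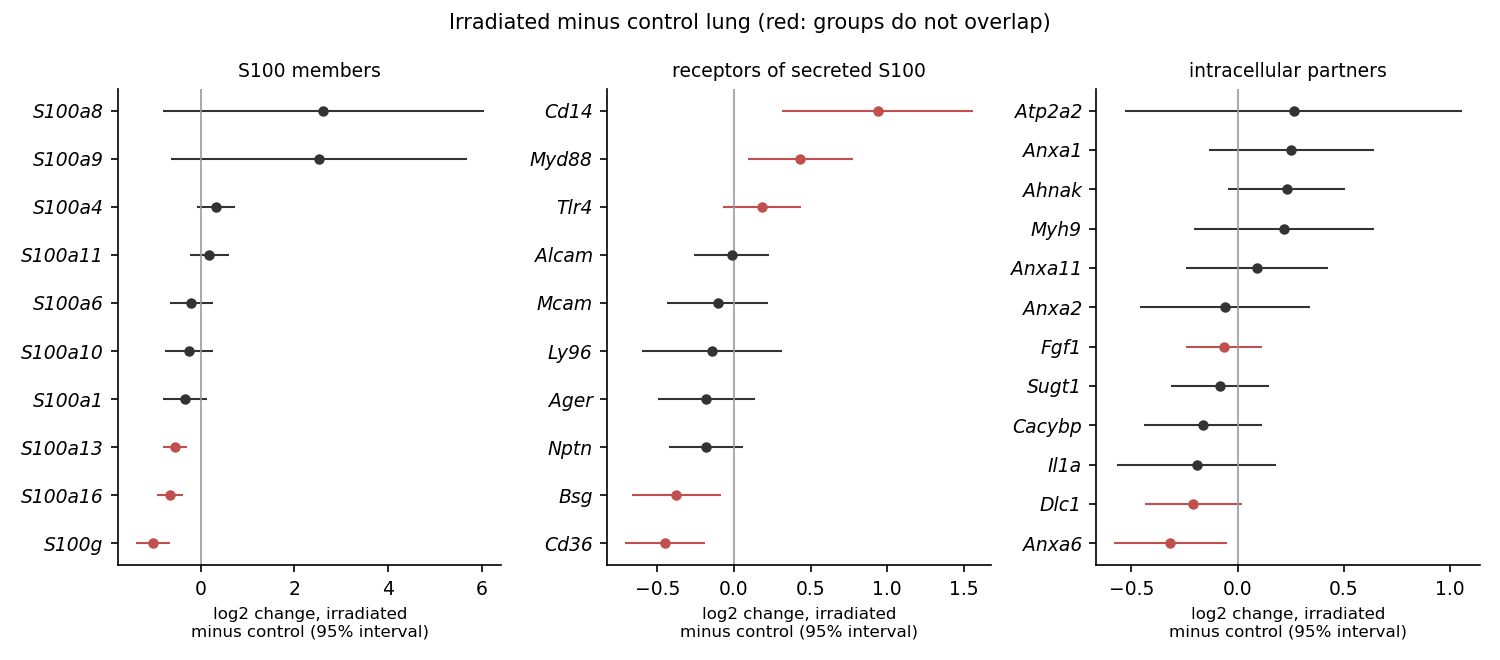
log2 difference between irradiated and control lung with its 95% interval for the 10 S100 genes, 10 receptor and adaptor genes and 12 tested partners, each panel with its own axis. Red marks genes whose groups do not overlap (S100g, S100a16 and S100a13 among the members), and the widest intervals are those of S100a8 and S100a9.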

How the data were processed

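Whole lung polyA RNA of 3 control and 3 irradiated mouse libraries was sequenced on a DNBSEQ-T7, per the labels' protocols. Of tools and builds, fastp, STAR 2.7.6a, DESeq2 and GRCm39 appear in the submitters' processing notes without a role or order. The tool behind the tables, their annotation and the strand setting were not given in the sources used here. The values are FPKM as deposited by the authors, per the file headers, summed per gene over named rows. The deposited coverage, a signal per base, served for the implied depth and the ratio of S100a9 to S100a8. The deposited TPM were left out, since they sum to more than TPM can. Counting intervals need counts and are not given.

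Genes averaging at least 1 FPKM were tested with limma 3.58.1 in R 4.3.3 on log2(FPKM + 1), with a mean-variance trend, robust variances and the group as the only term, with Benjamini-Hochberg adjustment over all 13908 genes. The design named a count test for counts and limma for FPKM, and since the tables hold FPKM the count test could not be run. The fit was tested on simulated data. The members, the gene lists and the rule for named genes (all members, from each list the 4 genes of smallest p and the most abundant, the 5 most alike genes for S100a8, S100a9, S100g, S100a13 and S100a16, and the 3 most abundant of a marker list) were chosen with earlier results of these data known. Ctps2, Cd177, Mmp8, Elane, Camp, Napsa, Aqp5, Myh9, Fgf1, Tlr4, Ly96 and the neighbours on chromosome 3 were named after their values were seen, as were ratios to Csf3r, Sftpc and Napsa. No pair of libraries shared an equal FPKM above 0 in any tested gene. Protein sequences were not used here. Python 3.11.15, pandas 2.3.3 and scipy 1.17.1 were used for the rest.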

Additional observations from a re-analysis of the deposited data

How the results depend on the processing

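No S100 gene was called in any of 17 alternatives, and S100g came closest, with limma adjusted p from 0.0508 (minimum of 5 FPKM) to 0.282 (replicate block). S100g, S100a16 and S100a13 kept a negative difference in all 17, from −1.11 to −0.85, −0.76 to −0.53 and −0.64 to −0.31, and S100a8 and S100a9 a positive one, from 0.84 and 0.93, both without the 2 libraries numbered 2, to 3.87 and 3.70. S100a6 alone turned sign, to 0.00417 without those 2 libraries. Rescaling to a common sum moved the median of all genes from −0.03 to 0.08, and with it S100g to −0.89 and S100a16 to −0.53. The count of genes called (25) was 0 with no filter, 38 with a minimum of 5 FPKM, 13 with a common sum, 11 with median-ratio and 12 with upper-quartile scaling, and 9 without the 2 libraries numbered 2. Without single libraries it ran from 0 (control 1 or control 3) over 1 (control 2) and 3 (irradiated 2) to 101 (irradiated 1) and 118 (irradiated 3). With the replicate number as a block it was 0, with 1623 genes at an unadjusted p under 0.05. The labels do not say whether same-numbered libraries share anything besides the number. Deviations of the same-numbered libraries from their group means correlated at −0.17, −0.54 and −0.28, which cannot show whether they were paired. Of the 9 pairs of a control and an irradiated library none of the same-numbered ones was the best match. The ratio of S100a9 to S100a8 had a median of 1.30 from FPKM and from coverage. The assembled entries were added after seeing the data. The S100 count rests on 3 libraries a group, and the intervals of S100a8 and S100a9 span from a lower to a many-fold higher level.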
